A study of Mus musculus with 4 samples.

Results

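Hedgehog signalling in growth plate cartilage was examined through 10 genes: the ligand Ihh, the receptor and feedback inhibitor Ptch1, the co-receptor Gas1, the transducers Smo, Kif7, Sufu, Gli2 and Gli3, and the feedback targets Gli1 and Hhip. Their probe sets were those whose annotated symbol is exactly one of these names, 24 of the 45037 probe sets tested, and the gene-level fit held all 10 among 18193 genes. RNA came from chondrocytes of the proliferative zone, where growth plate cells divide, cut from the knee ends of tibia and femur in 40 µm sections of hindlimbs at postnatal day 7, and 50 ng of it per sample was amplified and hybridised to Affymetrix mouse arrays. There were 2 arrays of Ift88-deleted mice (Col2aCre;Ift88fl/fl) and 2 of control mice labelled wild-type, all described as biological replicates on the C57BL/6 background. Ift88 encodes a protein of intraflagellar transport, the traffic along the axoneme that cells need to assemble a primary cilium. The Cre is driven by Col2a regulatory sequence, which is active in cartilage, so any other cell in the cut tissue would keep the gene. Whether the controls carry the floxed allele or the Cre, and how many animals went into a sample, is not given in the sources used here.

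Hedgehog ligands bind Ptch1 and thereby release Smo, which moves into the primary cilium and changes the processing of the Gli transcription factors there. Gli2 acts mainly as an activator and Gli3 mainly as a repressor, Sufu restrains both, and Kif7 is a kinesin that organises them at the cilium tip. In the growth plate Ihh is made by prehypertrophic chondrocytes and acts on the proliferating cells beside them. Signalling switches on Gli1, Ptch1 and Hhip, so the transcripts of these 3 genes serve as a readout of it.

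All values are log2 and relative to the median of the probe set over the 4 arrays, so a value says how an array stands against the others and nothing about the level of a gene. Differences are Ift88-deleted minus control, with n = 2 arrays per group and the standard error (SE) of limma's fit. A probe set or gene passed the threshold if its p, adjusted by the Benjamini-Hochberg method over all those tested, was under 0.05. Groups are called apart where every array of one lies on the same side of every array of the other. Ift88 itself, the deleted gene, was at 0.22 and -0.07 in the Ift88-deleted arrays, against 0.07 and -0.08 in the control arrays (log2 difference 0.08, SE 0.154, adjusted p = 1). Its groups overlapped. The position of its probes against the removed exons was not examined here, and the value does not check the deletion. Xist, the transcript of the inactive X, was at -3.79 and -3.61 in Ift88-deleted arrays against 3.58 and 3.74 in control arrays, and the Y-linked Eif2s3y, Kdm5d and Uty lay on the opposite sides. Sex, as these genes show it, and genotype can therefore not be told apart in any result here. Control 1 stood apart on the first principal component (51.4% of the variance), where the Ift88-deleted arrays lay at -16.8 and -36.6, control 1 at 53.9 and control 2 at -0.6. Each of the 12 chondrocyte markers, Col2a1, Acan and Sox9 among them, had a probe set in the brightest class, whose lowest original log2 value was 8 or more, and of 10 skeletal muscle markers 0 did. Of the 24 Hedgehog probe sets 9 were in this class and 1 in the dimmest (2 to 4).

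The large differences of the pathway lay in its feedback targets, which were lower in the Ift88-deleted arrays. Ptch1 (7.01-fold and 4.43-fold on a pair of its probe sets), Gli1 (6.16-fold) and Hhip (1.43-fold to 4.71-fold on its 4 probe sets) had groups that did not overlap. The ligand, the co-receptor and the transducers had differences of at most 0.48 on the log2 scale in either direction, and the largest belonged to a probe set of Gli3. Of the 24 probe sets 1, of Ptch1, passed the threshold downward, where 0.0222% of all probe sets did, and 0 passed upward, where 0.0222% did as well. An unadjusted p under 0.05 was reached downward by 7 (background 3.18%), all of them feedback targets, and upward by 1 (background 3.0%). Groups were apart with the Ift88-deleted arrays lower for 8 (background 17.4%) and higher for 3 (background 16.2%), and 5 were apart and at least 2-fold lower (background 0.422%). The median difference was -0.10 over the 24 and 0.00 over all probe sets tested, while it was -1.61 over the 8 probe sets of Ptch1, Gli1 and Hhip.

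**Figure D1:**
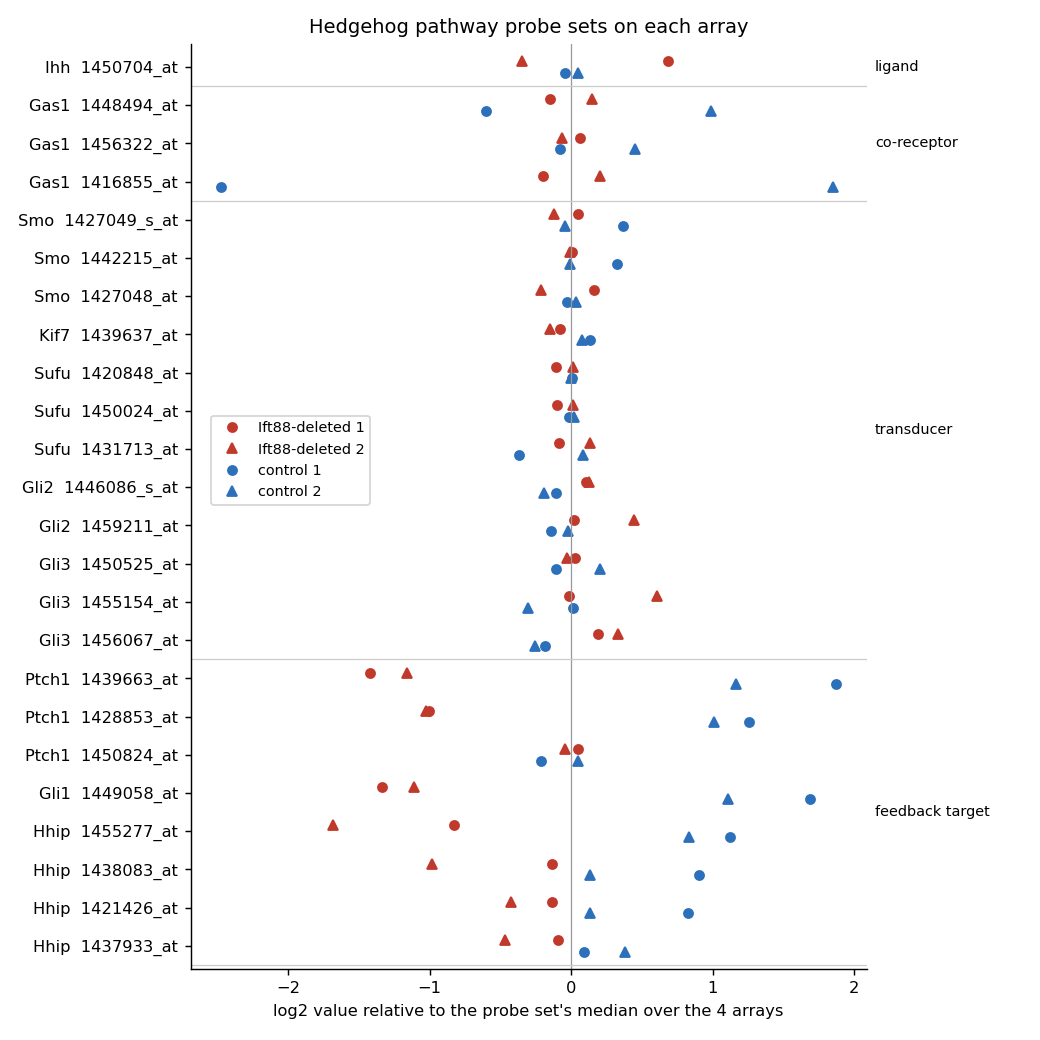
Log2 value of each of the 24 probe sets on each of the 4 arrays (x axis, relative to the probe set's median over the arrays), with Ift88-deleted arrays in red above control arrays in blue, circles for replicate 1 and triangles for replicate 2. Of the 8 probe sets at the bottom, those of Ptch1, Gli1 and Hhip, 7 have both red points left of both blue ones, while Gas1 1416855_at spreads from -2.47 to 1.85 within the control arrays.

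The ligand did not differ between the groups beyond its spread. Ihh had 1 probe set, at 0.68 and -0.35 in the Ift88-deleted arrays and at -0.04 and 0.04 in the control arrays. Both Ift88-deleted values lay outside the control values, on opposite sides, and the difference of the means was 0.17 (SE 0.34, 95% interval -0.69 to 1.02, adjusted p = 1). The prehypertrophic zone where Ihh is made borders the cut zone, and 2 of its 8 markers had the Ift88-deleted arrays on opposite sides of both controls in the same order: Col10a1, the collagen of hypertrophic cells, was at 0.72 and -0.46 there and at -0.17 and 0.17 in the controls, and Alpl, a mineralisation enzyme, at 0.77 and -0.61 there and at 0.08 and -0.08 in the controls. The others did not follow: Mmp13, a collagenase, was at -0.30 and 0.30 in the Ift88-deleted arrays, Sp7 was below both controls in both Ift88-deleted arrays, Pth1r was above both, and Mef2c, Panx3 and Ibsp each had at least 1 Ift88-deleted array within the range of the controls. Over the 8 prehypertrophic and hypertrophic markers the median was 0.19 and -0.32 in the Ift88-deleted arrays and -0.04 and 0.05 in the control arrays, and the groups were apart for 1 in each direction, where 18.6% of all genes were apart and lower and 14.7% apart and higher. The order of the arrays was the same for the perichondrial and bone markers. Their medians were 0.81 and -0.58 in the Ift88-deleted arrays and -0.28 and 0.06 in the control arrays, so this split is not particular to the prehypertrophic list. The part of either list in the Ihh values was not tested.

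Gas1, a membrane-anchored protein that helps ligand reach Ptch1, differed far more between the control arrays than between the groups. Its probe set 1416855_at was at -0.20 and 0.20 in the Ift88-deleted arrays and at -2.47 and 1.85 in the control arrays. That gap of 4.33 between both controls was the third largest of all 45037 probe sets, whose median gap was 0.221, and the gap between both Ift88-deleted arrays was 0.40. The other Gas1 probe sets ran the same way: 1448494_at was at -0.15 and 0.15 in the Ift88-deleted arrays against -0.60 and 0.99 in the controls, and 1456322_at at 0.06 and -0.06 in the Ift88-deleted arrays against -0.08 and 0.45 in the controls. With both controls on either side of the Ift88-deleted arrays, the differences were 0.31 (SE 1.32), -0.19 (SE 0.507) and -0.19 (SE 0.212), each with groups that overlap. The interval for 1416855_at, -3.00 to 3.62, leaves room for a change of either sign. Boc, another co-receptor, named here after its values were seen, had the same split on 2 of its 3 probe sets: 1426869_at was at -0.29 and 0.29 in the Ift88-deleted arrays and at -1.62 and 0.96 in the controls, and 1427516_a_at at -0.13 and 0.13 in the Ift88-deleted arrays and at -0.46 and 0.73 in the controls. The third, 1427517_at, did not have it, at -0.01 and -0.18 in the Ift88-deleted arrays and 0.01 and 0.05 in the controls.

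Control 2, the array with the high Gas1 values, was also the highest for the osteoclast markers and for some joint surface and resting zone markers. It also had the highest list median for skeletal muscle, blood and marrow, and endothelial markers, and not for chondrocyte, prehypertrophic or bone markers. Blood and marrow medians were 0.007 and 0.055 in the Ift88-deleted arrays and -0.28 and 0.453 in controls 1 and 2. Endothelial medians were -0.048 and 0.095 in the Ift88-deleted arrays and -0.227 and 0.207 in controls 1 and 2. Prg4, the lubricin of the joint surface, was at -0.19 and -0.01 in the Ift88-deleted arrays and at 0.01 and 7.52 in controls 1 and 2, which is the largest gap between the controls of any probe set. All 4 osteoclast markers were highest in control 2, with medians of -0.43 and 0.28 in the Ift88-deleted arrays and -0.28 and 1.70 in controls 1 and 2. The 6 resting zone and articular markers had medians of -0.24 and -0.08 in the Ift88-deleted arrays and 0.03 and 0.54 in the controls, with groups apart for 4 lower (all genes 18.6%) and 1 higher (all genes 14.7%). The part of any of these markers in the Gas1 values was not tested.

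Of the 12 transducer probe sets 0 passed the threshold in either direction, where 0.0222% of all probe sets did each way. An unadjusted p under 0.05 was reached downward by 0 (all probe sets 3.18%) and upward by 1 (all probe sets 3.0%). The median of the 12 differences was -0.03. Smo, the membrane protein that carries the signal into the cilium, was followed by 3 probe sets with differences of -0.20, -0.16 and -0.02, all with overlapping groups. Of these 1427049_s_at was at 0.05 and -0.12 in the Ift88-deleted arrays and at 0.36 and -0.05 in the controls, so control 1 alone stood high. Smo 1427049_s_at and 1427048_at share an annotated source sequence. Sufu had 3 probe sets with overlapping groups and differences of -0.05, -0.04 and 0.17. The 95% intervals of its first and second probe sets, -0.40 to 0.30 and -0.39 to 0.31, hold only small changes of either sign. This pair shares an annotated source sequence, so they are not independent views of the transcript. The interval of 1431713_at, from another source sequence, was wider, at -0.34 to 0.68. Kif7 had 1 probe set, at -0.08 and -0.15 in the Ift88-deleted arrays and at 0.14 and 0.08 in the controls. Its groups were apart, and the difference of -0.22 (SE 0.137, adjusted p = 0.903) did not pass.

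Most Gli2 and Gli3 probe sets had positive differences, none of which passed the threshold. Gli2 was at 0.11 and 0.12 in the Ift88-deleted arrays against -0.11 and -0.19 in the controls on 1446086_s_at, and at 0.02 and 0.44 in the Ift88-deleted arrays against -0.15 and -0.02 in the controls on 1459211_at. Both had groups apart, with differences of 0.26 (SE 0.137, adjusted p = 0.868) and 0.32 (SE 0.189, adjusted p = 0.897). The pair shares the annotated source sequence AW546128, so they are not independent views of the transcript. Gli3 was at 0.19 and 0.33 in the Ift88-deleted arrays against -0.19 and -0.26 in the controls on 1456067_at, a difference of 0.48 (SE 0.143, unadjusted p = 0.0174, adjusted p = 0.701). On 1455154_at Ift88-deleted 2 alone stood high, with -0.01 and 0.60 in the Ift88-deleted arrays against 0.01 and -0.30 in the controls (difference 0.44, SE 0.249). The third probe set, 1450525_at, had a difference of -0.05 with overlapping groups. As genes, Gli2 and Gli3 had differences of 0.29 each (SE 0.137 and 0.14, adjusted p = 0.881 for both). The arrays measure transcripts, and the processing of the Gli proteins was not measured.

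Among the feedback targets Ptch1 held the probe set that passed. Probe set 1428853_at was at -1.01 and -1.02 in the Ift88-deleted arrays, against 1.26 and 1.01 in the control arrays. Each group was tight and they lay 2 log2 units apart, so Ptch1 fell 4.43-fold by this probe set (log2 difference -2.15, SE 0.154, 95% interval -2.53 to -1.76, adjusted p = 0.0416). Probe set 1439663_at was at -1.42 and -1.16 in the Ift88-deleted arrays against 1.87 and 1.16 in the controls. This is a larger difference with more spread (-2.81, SE 0.265, adjusted p = 0.119), the ninth lowest of all probe sets. Probe set 1450824_at showed none of it, at 0.04 and -0.04 in the Ift88-deleted arrays against -0.21 and 0.05 in the controls (0.08, SE 0.158, 95% interval -0.32 to 0.48). Its interval does not reach those of the other Ptch1 probe sets, and which exons each covers was not analysed here. The mean over all 3 gave -1.62 for the gene (SE 0.14, adjusted p = 0.0683).

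Gli1, the transcription factor most directly induced by the pathway, was the fourth lowest of 18193 genes. Its single probe set was at -1.34 and -1.11 in the Ift88-deleted arrays and at 1.69 and 1.11 in the control arrays. The nearest arrays of the groups were thus more than 2 log2 units apart, and the difference was -2.62 (SE 0.231, 95% interval -3.20 to -2.04), with an adjusted p of 0.0911 over probe sets and 0.0673 over genes. In bulk tissue fewer responding cells and less Gli1 or Ptch1 RNA per cell cannot be told apart.

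Hhip, which binds Hedgehog ligands at the cell surface and sequesters them, was lower on each of its 4 probe sets, by very different amounts. On 1455277_at it was at -0.83 and -1.69 in the Ift88-deleted arrays and at 1.12 and 0.83 in the controls (-2.24, SE 0.305, adjusted p = 0.292). The differences on the others were -1.08 (1438083_at, SE 0.374), -0.76 (1421426_at, SE 0.263) and -0.51 (1437933_at, SE 0.196), with unadjusted p of 0.031, 0.0308 and 0.0428 and groups apart each time. Ift88-deleted 2 was the lowest array on all 4, while control 1 was the highest on 3 of them and control 2 on 1437933_at. The gene mean was -1.15 (SE 0.238, adjusted p = 0.447), so Hhip did not pass at either level.

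**Figure D2:**
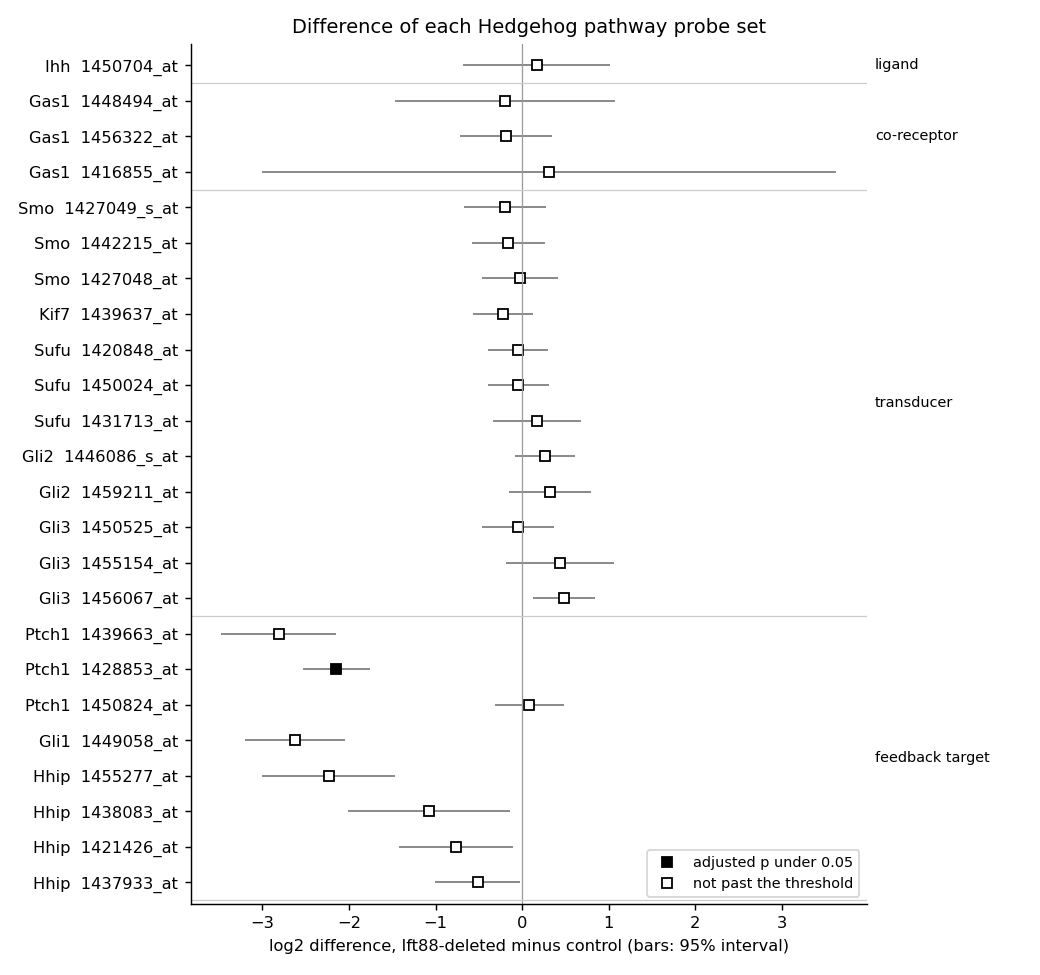
Log2 difference of each of the 24 probe sets, Ift88-deleted minus control (x axis), with 95% intervals from limma and n = 2 arrays per group. The filled square, Ptch1 1428853_at at -2.15, is the one past the threshold, and the intervals of the 7 lower feedback target probe sets lie below 0 while that of Ptch1 1450824_at includes 0.

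The call on Ptch1 was near the threshold. It was lost under 7 alternatives that keep all arrays (adjusted p = 0.0511 to 0.878). The removal of probe sets that name 1 X-linked or Y-linked gene was among them. It was also lost without any 1 of the 4 arrays, where the difference stayed between -2.27 and -2.02. Gli1 stayed between -2.91 and -2.33 without single arrays and passed over probe sets with the dimmest class left out (adjusted p = 0.0466).

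**Figure D3:**
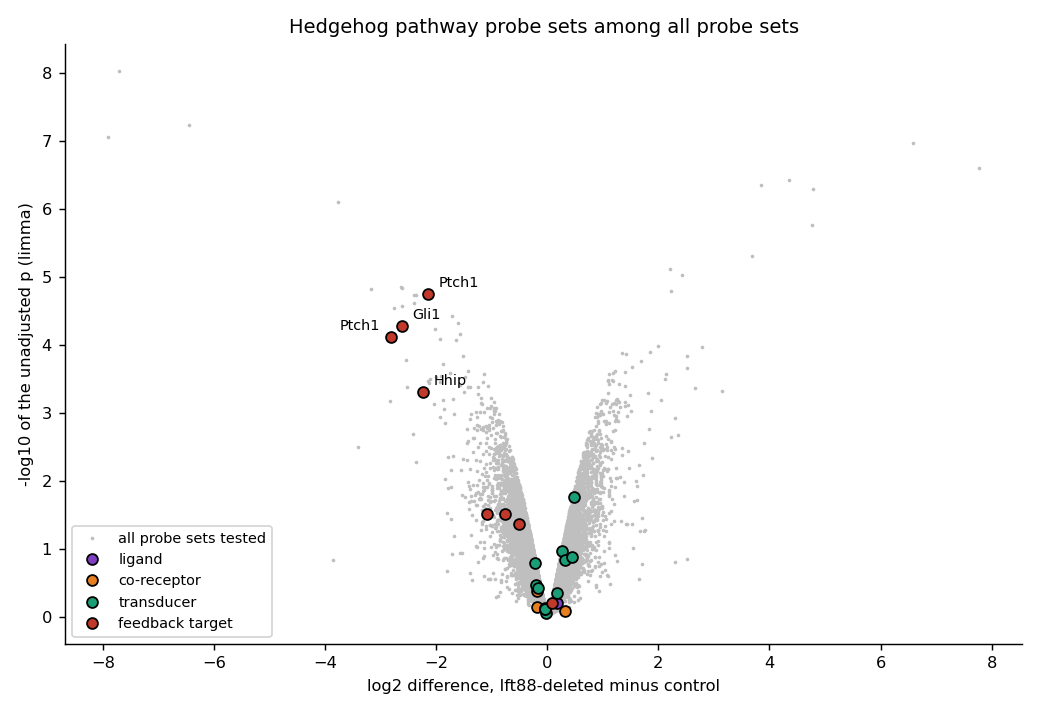
Difference (x axis, log2, Ift88-deleted minus control) against the -log10 of limma's unadjusted p (y axis) for all 45037 probe sets in grey and for the 24 by role in colour. Probe sets of Ptch1, Gli1 and Hhip lie at the left edge of the cloud at -2.81 to -2.15, beyond which the outlying grey points include the sex-linked Xist.

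The promoters of Ptch1 and Hhip are shown because both genes moved with Gli1, whose family binds the motif GACCACCCA. They are from RefSeq (GRCm38.p6), run 5′ to 3′ on the gene's strand from 250 bases before to 50 after the annotated start, and the capitals mark the bases from the start on. The Ptch1 window is chr13:63565686-63565985 and the Hhip window chr8:80057959-80058258, both on the minus strand.
Ptch1: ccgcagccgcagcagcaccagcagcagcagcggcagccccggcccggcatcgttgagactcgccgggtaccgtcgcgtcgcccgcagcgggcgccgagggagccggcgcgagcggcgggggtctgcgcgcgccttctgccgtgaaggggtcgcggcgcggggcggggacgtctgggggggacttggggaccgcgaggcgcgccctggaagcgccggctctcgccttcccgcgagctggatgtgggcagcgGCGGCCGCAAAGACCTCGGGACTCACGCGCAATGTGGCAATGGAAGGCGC
Hhip: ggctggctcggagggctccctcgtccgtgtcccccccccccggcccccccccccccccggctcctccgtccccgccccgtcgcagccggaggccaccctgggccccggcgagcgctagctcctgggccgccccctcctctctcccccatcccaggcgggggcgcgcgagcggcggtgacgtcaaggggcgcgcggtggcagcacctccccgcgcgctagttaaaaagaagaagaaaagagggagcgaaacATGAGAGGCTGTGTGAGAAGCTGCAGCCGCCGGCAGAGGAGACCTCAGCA
Windows for 9 of the 10 genes were matched by symbol. The motif, searched on both strands, was in 0 of these 9 windows, also when 1 letter could differ, while 0.253% of all 32851 promoter windows held it exactly and 6.74% with at most 1 letter changed. These letters are therefore not in these windows, and more distant sequence was not searched. The windows of Ptch1 and Hhip were 76.3% and 73.7% G or C, against a median of 52.7% over all windows.

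As a list, the other components of the pathway lay near the median of all genes. Of 35 measured genes of ligand release, co-reception, ciliary regulation and Gli degradation, 0 passed the threshold downward or upward over all genes, where 0.0055% of genes passed in each direction, and their median difference was 0.02, against -0.01 over all genes. An unadjusted p under 0.05 was reached downward by 1 (background 3.68%) and upward by 2 (background 2.29%), and groups were apart for 5 lower (background 18.6%) and 7 higher (background 14.7%). Gpc3, a glypican that binds Hedgehog ligands, was at -0.54 and -0.34 in the Ift88-deleted arrays against 0.87 and 0.34 in the controls (-1.04, SE 0.207, adjusted p = 0.424). The gene is X-linked, and sex, as Xist shows it, and genotype cannot be told apart in its difference. Scube3, of a family of secreted proteins that help ligand leave the cell, was at 1.05 and 0.11 in the Ift88-deleted arrays against -0.28 and -0.11 in the controls (0.77, SE 0.305, adjusted p = 0.83), with Ift88-deleted 1 alone high. Gsk3b, a kinase that marks Gli proteins for processing, had a difference of 0.39 (SE 0.133, adjusted p = 0.814).

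Other genes reported as Hedgehog or Gli targets in mouse tissues had, as a list, a median difference near that of all genes. Of 32 measured, 0 passed in either direction (all genes 0.0055% each way), and 3 had an unadjusted p under 0.05 downward (all genes 3.68%) and 3 upward (all genes 2.29%). Groups were apart for 9 lower (all genes 18.6%) and 5 higher (all genes 14.7%). Only 12 of the 32 had a probe set in the brightest class, and whether the others are expressed in this tissue could not be read. Of the differences 16 lay below 0 and 16 above, against 9435 and 8758 of all genes, and the median was 0.00. Bcl2, which protects cells from death, was at -0.62 and -0.42 in the Ift88-deleted arrays against 0.75 and 0.49 in the controls (-1.14, SE 0.153, adjusted p = 0.213). Lower with groups apart were also Cdk6, a cell cycle kinase (-0.76, SE 0.154), and the ligand Wnt5a (-0.64, SE 0.219). The D cyclins on this list, Ccnd2 and Ccnd1, which drive entry into the cell cycle, had the opposite sign. Ccnd2 was at 0.40 and 0.40 in the Ift88-deleted arrays against -0.48 and -0.27 in the controls (0.77, SE 0.136, adjusted p = 0.329), and Ccnd1 at 0.28 and 0.54 in the Ift88-deleted arrays against -0.23 and -0.39 in the controls (0.72, SE 0.151, adjusted p = 0.459). The chemokine Cxcl14 had a difference of 0.60 (SE 0.223).

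**Figure D4:**
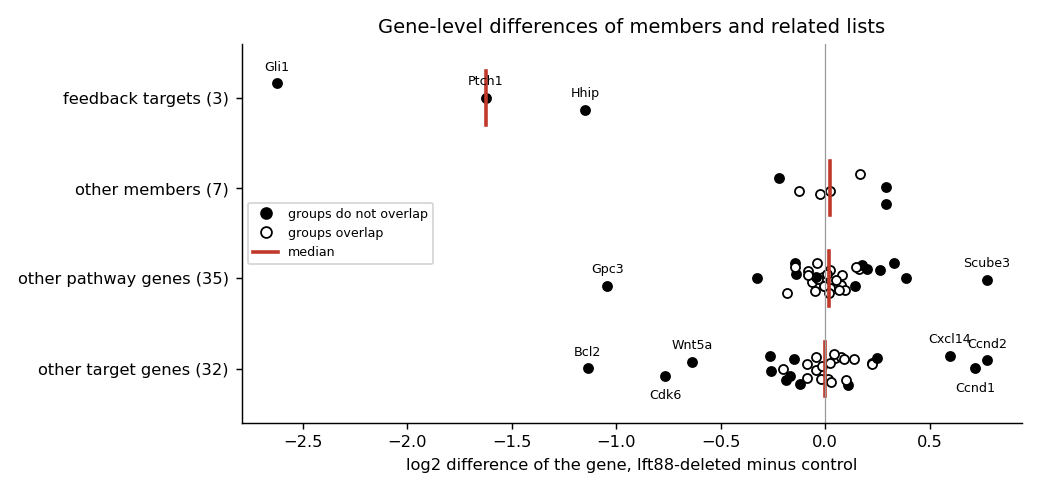
Gene-level log2 differences, Ift88-deleted minus control (x axis), for the 3 feedback targets, the 7 other members, 35 other pathway genes and 32 other target genes, 1 point per gene, filled where the groups do not overlap, with the median in red. Gli1 at -2.62, Ptch1 at -1.62 and Hhip at -1.15 lie left of every point of the other 3 groups.

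Of the markers of neighbouring tissue, 0 of the muscle, perichondrial and bone genes passed the threshold in the gene-level fit (all genes 0.0055% each way). Over probe sets, however, a probe set of the muscle gene Tnni2 passed downward (-3.17, SE 0.221, adjusted p = 0.0416). Its adjusted p was the same as that of the called Ptch1 probe set. At gene level 3 muscle genes had an unadjusted p under 0.05 downward (all genes 3.68%). Of the perichondrial and bone genes 1 did downward (all genes 3.68%) and 2 upward (all genes 2.29%). Of 10 skeletal muscle genes 4 were lower with groups apart (all genes 18.6%), Tnni2 (-1.96, SE 0.155, adjusted p = 0.0673) and Tnnc2 (-1.08, SE 0.128) among them, and the list's medians were -0.08 and -0.09 in the Ift88-deleted arrays against 0.08 and 0.44 in the controls. Of 8 perichondrial and bone genes 2 were higher and 1 lower with groups apart, where 14.7% and 18.6% of all genes were, and their medians were 0.81 and -0.58 in the Ift88-deleted arrays and -0.28 and 0.06 in the controls. Thbs2, a thrombospondin, was at 2.04 and 0.11 in the Ift88-deleted arrays against -0.76 and -0.11 in the controls. Of the 12 chondrocyte genes 3 were higher and 2 lower with groups apart, against the same 14.7% and 18.6% of all genes, with medians of 0.14 and -0.04 in the Ift88-deleted arrays against -0.01 and 0.00 in the controls. For 7 blood and marrow genes and 5 endothelial genes the groups overlapped in every case. Summed levels cannot be given, since levels were subtracted, and the part of these markers in the Gli1, Ptch1 and Hhip values was not tested.

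Likeness over the 4 arrays, by root mean square difference, was ranked only among probe sets that name 1 gene, with Gm, LOC and Rik symbols left out. Probe sets with no or several gene names can lie nearer and are not listed. In this set, those most like Gli1 were Ptch1 1439663_at (0.108), Lsp1 (0.155), H2-DMb2 (0.203), Snhg14 (0.219), H2-DMa (0.266) and Tmcc3 (0.275). In the same set, those most like Ptch1 1428853_at were Lsp1 (0.143), Mme (0.164), Yipf1 (0.195), H2-DMa (0.196), Itgb8 (0.204) and Prelp (0.219). With 4 arrays in 2 groups, such likeness mostly repeats the difference between the groups.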

How the data were processed

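The deposited values are log2 expression values, 1 per probe set and array. Per the submitters' processing notes the authors used RMA, no version being given, which corrects background, evens the arrays' distributions and summarises the probes of a probe set. In the deposited table each probe set's median over the 4 arrays is 0 (largest departure 5e-07), so differences between arrays are kept and levels are lost. The log base was inferred from the step size of the values, which is that of single-precision numbers between 2 and 16. The same step sorts probe sets by their lowest original value, and a dimmer one can fall into a brighter class by chance.

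Gene names come from the array annotation, updated through GRCm38.p6 RefSeq records. After 64 control probe sets were left out, 45037 probe sets were compared in limma 3.58.1 (R 4.3.3) on the group alone, Ift88-deleted minus control, by a moderated two-sided test with Benjamini-Hochberg adjustment over the whole table and a threshold of 0.05. A gene-level fit took the mean over the probe sets that name 1 gene (34945 probe sets, 18193 genes, 34741 of the probe sets with a RefSeq record). The residual degrees of freedom were 2 and the prior ones 3.46 for probe sets and 3.83 for genes. With 2 arrays against 2 an exact permutation test cannot give a two-sided p under 0.333, so none was run. The number of arrays limits the precision. The code was tested on simulated data.

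The members, the gene lists and the naming rule were chosen with earlier results of these data known. Named are all member probe sets, Ift88, up to 6 genes of each related list with an unadjusted p under 0.05 and groups apart, markers set beside a result, and the 6 probe sets nearest to Gli1 and to the called Ptch1 probe set. Genes chosen outside this rule are said to be so. Alternatives were another normalization, spread, test, threshold or set of probe sets, the replicate number as a block, and leaving out each array.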

Additional observations from a re-analysis of the deposited data

How the results depend on the processing

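Differences of Gli1, of the lower Ptch1 probe sets and of the Hhip probe sets kept their sign under every alternative run, but most alternatives could not turn it. With groups apart, leaving out 1 array cannot, and another spread, test, threshold, block or set of probe sets leaves a difference as it is. Renewed quantile normalization could, and gave -2.65 for Gli1, -2.93 and -2.10 for Ptch1 1439663_at and 1428853_at, and -2.38 to -0.54 for Hhip. This setting evened the arrays' distributions of the deposited median-centred values and did not repeat the step of RMA on levels. The count of 1 member probe set past the threshold was also 1 with renewed quantile normalization or a robust spread, 2 with a threshold of 0.1 or the dimmest class left out, and 0 with each array's median subtracted, no moderation, a test against a log2 difference of 0.5, X and Y left out, only probe sets that name 1 gene, and without each array. Over all probe sets 20 passed, 2 without moderation, 11 against a difference of 0.5, 5 with X and Y left out, 6 with single-gene probe sets, and 9 to 12 without single arrays. Chromosomes were assigned only to probe sets that name 1 gene. The X and Y setting therefore kept the 932 probe sets with several symbols and the 9160 with none, whatever their chromosome. Over genes 2 passed, Xist and Eif2s3y, while 669 lower and 416 higher had an unadjusted p under 0.05. The counts were 14 genes with 2 members (Gli1 and Ptch1) after renewed quantile normalization, 11 with 2 at a threshold of 0.1, 1 without moderation, 0 with X and Y left out, 4 with the dimmest class left out, 8 with the probe set of largest spread, and 2 to 56 without single arrays, with 0 to 3 members. Without Ift88-deleted replicate 1 there were 56 genes and the members were Gli1, Ptch1 and Hhip, and without Ift88-deleted replicate 2 there were 38. The related lists had 0 calls throughout. The replicate numbers name samples and are not known to pair them (correlation of deviations 0.102). With the replicate block 0 member probe sets, 5 probe sets and 1 gene passed.

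The median over the 24 probe sets was -0.05 with the dimmest class left out and -0.19 to -0.01 without single arrays. Averaging probe sets turned the sign for Ptch1 1450824_at (-1.62), Gas1 1416855_at (-0.02), Sufu 1420848_at and 1450024_at (0.03 each) and Gli3 1450525_at (0.29). Gas1 was at 0.31 with the probe set of largest spread, and renewed normalization gave 0.01 for Smo 1427048_at and 0.00 for Sufu. Without single arrays the ranges that include both signs were -0.35 to 0.68 for Ihh, -0.05 to 0.21 for Ptch1 1450824_at, -0.99 to 0.60, -0.45 to 0.08 and -1.85 to 2.47 for Gas1 1448494_at, 1456322_at and 1416855_at (gene -1.10 to 1.05), -0.40 to 0.01, -0.33 to 0.01 and -0.21 to 0.16 for Smo 1427049_s_at, 1442215_at and 1427048_at, -0.11 to 0.01, -0.10 to 0.01 and -0.06 to 0.39 for Sufu 1420848_at, 1450024_at and 1431713_at (gene -0.05 to 0.11), -0.21 to 0.11 for Gli3 1450525_at and -0.06 to 0.22 for Ift88. The cause of these changes was not tested, other than that fewer probe sets or arrays were fitted where some were left out. Signal over background could not be read, since levels were subtracted.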
